A study of Sus scrofa with 6 samples.

Results

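The actin turnover genes described here are 10: LIMA1, TWF1, TWF2, PSTPIP2, PSTPIP1, CFL1, CFL2, DSTN, CAP1 and PFN1. They were looked up by gene name among the 17678 genes of the normalized abundance table. Of the 10, 9 were listed by name, and DSTN was found through its Ensembl identifier, ENSSSCG00000007085, which the table lists without a name. LIMA1, TWF1 and PSTPIP2 had been chosen for their lower values in SIN3A-depleted embryos of these same libraries, so their differences between groups are given as a description and without a test. The values that chose them were their normalized abundances in NC and KD, that is, they were selected on the very contrast described below. The other 7 are their relatives and other actin regulators, and all 10 passed the filter on low values. LIMA1 was at 26.5%, TWF1 at 56.8% and the low PSTPIP2 at 33.6% of the control level in depleted embryos. For TWF2, PSTPIP1, both cofilins, destrin, CAP1 and profilin the values of the groups overlapped.

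Porcine oocytes matured in vitro were injected at the MII stage with non-specific siRNA (NC) or with siRNAs against SIN3A (KD), and were then activated parthenogenetically, so that the embryos of both groups carry no paternal genome. Embryos were collected at the 2-cell stage, 32 h after activation, in 3 replicates per group with 20 embryos each. This stage precedes activation of the embryonic genome in pigs. The paper describes transcription at this stage as generally believed to be silent. Messenger RNA was sequenced to compare transcript content between the groups. SIN3A is the scaffold of a histone deacetylase repressor complex. The oocytes came from slaughterhouse ovaries of crossbred pigs, and the study describes the replicates as independent. The labels do not say whether they came from separate collections of ovaries, so p-values measure the spread between these samples. The oocytes of both groups were also exposed to cytochalasin B, a drug that blocks actin polymerization, during injection and again during activation, so this exposure was common to NC and KD embryos. Fluorescent protein mRNAs added as spike-ins were not used here.

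Actin filaments grow from a pool of monomers and are taken apart again, and the balance shapes the cortex of the blastomere and the contractile ring that divides it. Profilin (PFN1) loads monomers for growth, the cofilins (CFL1 and CFL2) and destrin (DSTN) sever and depolymerize filaments, and CAP1 recycles the released monomers. Twinfilins (TWF1 and TWF2) bind monomers, cap the growing end and promote its disassembly. LIMA1, also called EPLIN, works in the other direction, since it bundles and stabilizes filaments, restrains branching and links cadherin and catenin junctions to actin. PSTPIP1 and PSTPIP2 are membrane-bending F-BAR proteins that organize actin and are best known from blood cells.

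SIN3A was checked first. Values are listed throughout in the order of replicates 1, 2 and 3. The normalized abundance of SIN3A was 37361, 33964 and 32404 in NC and 3271, 1079 and 4173 in KD libraries, so that every KD library was below every NC library and KD replicate 2 held the least. On average 8.22% of the NC level was left. The values summed to between 11084950 and 11500709 per library, and the spacing of low values put the depth at roughly 7770000 to 15760000 reads. A single read was thereby worth 0.72 to 1.47 units, with KD replicate 2 the deepest library and NC replicate 2 the shallowest. Oocyte and early embryo markers were abundant in all libraries, with 10 of 12 markers found, all 10 of them tested and none called. Their summed abundance was 68257 to 75526 in NC and 67493 to 82729 in KD libraries. Cumulus and granulosa cell markers, of which 10 of 12 were found, summed to 167 to 260 in NC and 162 to 226 in KD libraries. Most of this sum came from VIM, at 90.1 to 168 in NC and 83.6 to 119 in KD, and from COL1A2. COL1A2 was at 23.8 to 53.5 in NC and 36.4 to 43.8 in KD libraries. Of the 10 markers found, 4 were tested and none was called. The rest were low, with PTX3 at 2.21, 1.55 and 0.762 in NC and at 0 in all KD libraries, CYP19A1 at 3.55, 0 and 1.94 in NC and at 9.27, 3.26 and 10.7 in KD, and FOXL2 at 1.05, 1.47 and 2.53 in NC and at 1.95, 2.90 and 13.1 in KD libraries.

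The windows around the annotated starts of LIMA1, TWF1 and PSTPIP2 are printed because these are the chosen genes and because a neighbouring gene starts inside the LIMA1 window. Each runs from 250 bases before to 50 bases after the gene start in RefSeq on Sscrofa11.1, 5′ to 3′ on the strand of the gene. Capitals mark every GC box (GGGCGG) and CCAAT box (CCAAT) on either strand. The LIMA1 window is chr5:16177073-16177372, the TWF1 window chr5:74881171-74881470 and the PSTPIP2 window chr1:95727778-95728077, all on the minus strand.
LIMA1: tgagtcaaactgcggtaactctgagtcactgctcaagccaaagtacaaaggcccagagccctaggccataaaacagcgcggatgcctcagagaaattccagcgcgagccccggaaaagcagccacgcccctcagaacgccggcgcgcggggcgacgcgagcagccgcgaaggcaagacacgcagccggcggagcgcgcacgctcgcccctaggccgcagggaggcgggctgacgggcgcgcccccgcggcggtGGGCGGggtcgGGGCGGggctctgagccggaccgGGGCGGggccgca
TWF1: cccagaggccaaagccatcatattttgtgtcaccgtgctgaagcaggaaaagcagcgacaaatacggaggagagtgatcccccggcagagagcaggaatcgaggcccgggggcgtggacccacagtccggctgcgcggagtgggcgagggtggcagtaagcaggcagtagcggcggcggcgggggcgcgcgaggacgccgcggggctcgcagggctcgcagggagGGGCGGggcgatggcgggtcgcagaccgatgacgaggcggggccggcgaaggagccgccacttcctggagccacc
PSTPIP2: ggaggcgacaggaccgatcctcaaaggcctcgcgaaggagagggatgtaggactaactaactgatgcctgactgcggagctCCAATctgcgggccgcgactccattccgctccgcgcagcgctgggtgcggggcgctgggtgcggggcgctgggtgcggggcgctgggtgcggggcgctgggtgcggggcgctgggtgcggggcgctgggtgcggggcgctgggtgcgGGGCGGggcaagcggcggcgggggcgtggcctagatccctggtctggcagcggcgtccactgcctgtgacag
All 3 windows were rich in G and C, at 71.3%, 70.0% and 73.7%. LIMA1 held 3 GC boxes, all of them after its annotated start. TWF1 held 1 and PSTPIP2 held 1, and PSTPIP2 also held a CCAAT box. A GC box was present in 50.6% and a CCAAT box in 35.4% of 19556 protein-coding promoters of the same length. None of the 3 windows held an E-box (CACGTG, in 7.92% of promoters), a TATAAA (10.9%) or a CArG box (1.53%). These matches describe the letters of the window only, and promoter activity was not measured.

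LIMA1 (ENSSSCG00000032269) lies on chromosome 5 from 16074436 to 16177122 on the minus strand. RefSeq lists 11 LIMA1 mRNAs with 6 starts, the longest of 3982 bases in 11 exons with a coding sequence for 766 residues. The table gives a single value per gene, so its isoforms are not told apart here. LIMA1 abundance was 670, 476 and 446 in NC and 160, 99.7 and 163 in KD libraries. The groups did not overlap, and the highest KD library stood far below the lowest NC library. NC embryos averaged 530 ± 122 (SD, n = 3) and KD embryos 141 ± 35.5 (SD, n = 3), which is 26.5% of the NC mean. On the log2(value + 1) scale, which all fold changes here use, LIMA1 differed by -1.92 (standard error 0.19). Since 20 embryos were pooled in each library, fewer embryos with the transcript and less transcript per embryo cannot be told apart. Messenger RNA was selected with oligo(dT) beads and poly(A) tail length was not measured, so a difference in tail length was not tested.

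LIMA1 and LARP4, an RNA-binding protein gene that acts on messenger RNA stability and translation, start back to back. LARP4 lies on the plus strand, and 122 bases separate the annotated starts, so the start of LARP4 is inside the LIMA1 window printed above. LARP4 abundance was 1820, 1424 and 1391 in NC and 1639, 1393 and 1610 in KD libraries. The 3 KD values thus lay within the range of the NC values. The difference in LARP4 was 0.0090 on the log2 scale (standard error 0.11), with an adjusted p of 0.997 by limma. CERS5, a ceramide synthase gene 4332 bases beyond the other end of LIMA1, differed by 0.029 on the log2 scale (adjusted p = 0.997 by limma). LARP4 and CERS5 fall outside the naming rule and were picked once their values were known.

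**Figure D1:**
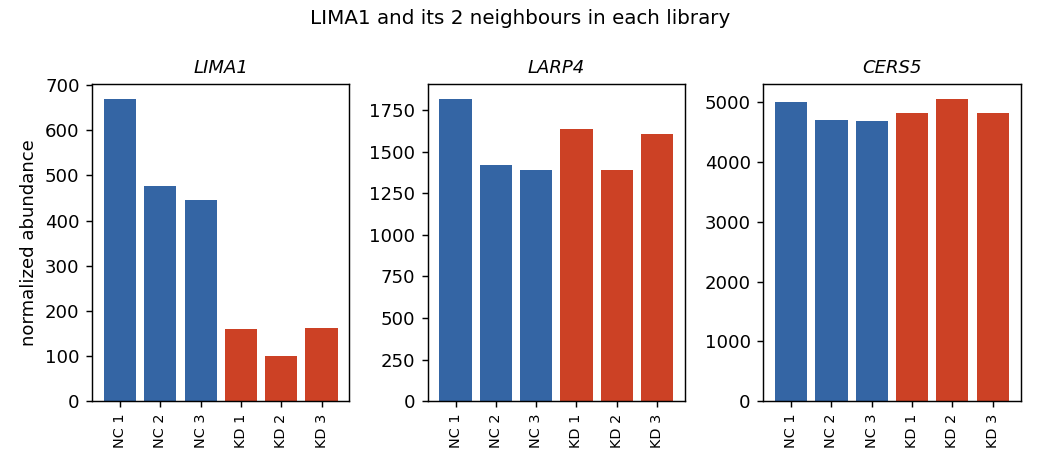
Normalized abundance (vertical axes start at 0, scales differ) of LIMA1, of LARP4 whose start is 122 bases away and of CERS5 in each library. All KD bars of LIMA1 are below all NC bars, and the groups of LARP4 and CERS5 overlap.

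TWF1 (ENSSSCG00000000798) lies on the same chromosome, from 74868586 to 74881220 on the minus strand, with 1 mRNA of 3149 bases in 9 exons. Its abundance was 2351, 1943 and 1837 in NC and 1286, 942 and 1256 in KD libraries. All KD libraries were below all NC libraries. NC embryos averaged 2043 ± 271 (SD, n = 3) and KD embryos 1161 ± 191 (SD, n = 3), or 56.8% of the NC mean. The log2 fold change was -0.82 (standard error 0.13). The proportional difference was thus smaller than that of LIMA1, while TWF1 differed by more units of abundance. Its nearest tested neighbours, IRAK4 and TMEM117, differed by -0.083 and -0.078 on the log2 scale (adjusted p = 0.997 each by limma) and were likewise picked once their values were known.

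PSTPIP2 (ENSSSCG00000004497), on chromosome 1 from 95631456 to 95727827, was among the low genes of the table. Its abundance was 52.4, 17.2 and 29.8 in NC and 14.7, 3.02 and 15.7 in KD libraries. The groups did not overlap, but NC replicate 2 and KD replicates 1 and 3 were close together. In estimated reads, obtained by dividing each value by the worth of a read, PSTPIP2 held 50.2, 11.7 and 34.9 in NC and 15.1, 4.20 and 14.3 in KD libraries. On that scale, which is not adjusted for depth, NC replicate 2 was below KD replicates 1 and 3. NC embryos averaged 33.1 ± 17.8 (SD, n = 3) and KD embryos 11.13 ± 7.04 (SD, n = 3). The log2 fold change was -1.61 (standard error 0.56). Without KD replicate 2 it was -0.94. The nearest tested neighbours of PSTPIP2, EPG5 and HAUS1, differed by 0.18 and -0.10 on the log2 scale (adjusted p = 0.997 each by limma). For EPG5 all KD libraries were above all NC libraries, as in 4.85% of all genes tested, and the groups of HAUS1 overlapped. Both neighbours fall outside the naming rule.

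Since PSTPIP2 is known from blood cells, 8 blood and myeloid markers were examined, of which 7 were found. Their sum was 68.7 to 186 in NC and 87.8 to 122 in KD libraries, and the groups overlapped in each of the 7. The leukocyte phosphatase PTPRC was at 13.9, 0 and 7.95 in NC and at 5.24, 0.915 and 4.34 in KD libraries, and the haemoglobin gene HBB was at 74.9 in NC replicate 1 and at most 1.96 in the other libraries. NC replicate 1, where PSTPIP2 was highest, was thus also the highest for these markers, and for CD14 at 13.6.

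Other markers were distributed differently. In KD replicate 2, where PSTPIP2 was lowest, AIF1 was at 19.4, its highest value in any library, and CD14 was at 10.1, its highest value in KD. CSF1R was highest in KD replicate 1, at 95.3, and CD68 in KD replicate 3, at 9.85. LYZ was at most at 1.70. The part of blood cell RNA in the PSTPIP2 values was not tested.

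**Figure D2:**
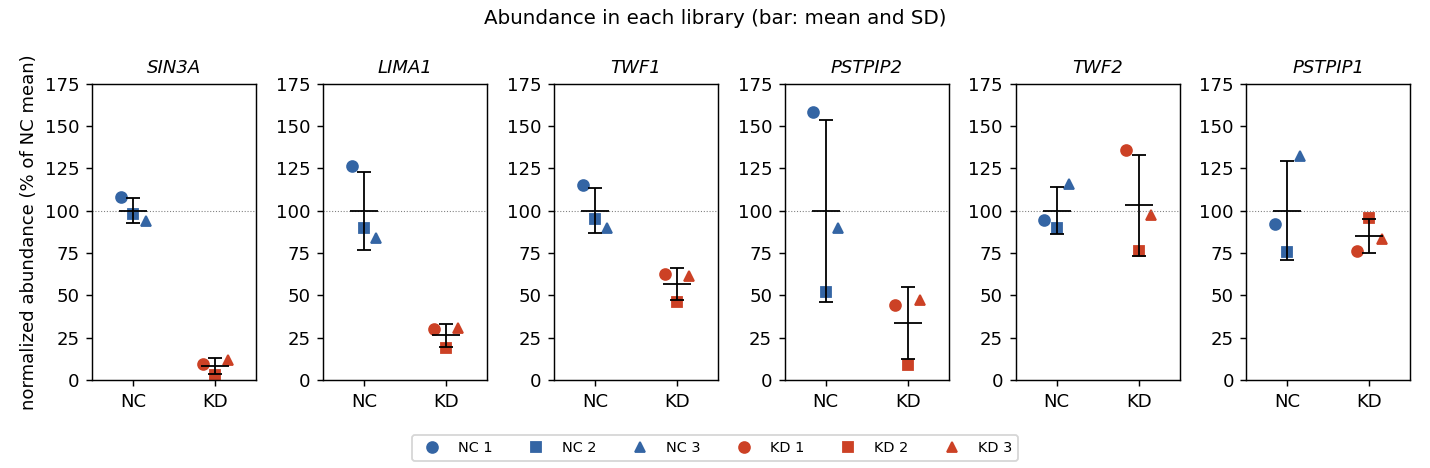
Normalized abundance of SIN3A and of 5 actin genes in each library, as a percent of the NC mean of the gene (points are libraries, bars the mean and SD of 3). LIMA1 and TWF1 lie apart between groups, PSTPIP2 spreads widely in NC, and TWF2 and PSTPIP1 overlap.

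In the closest relatives of the chosen genes the groups overlapped. TWF2 (ENSSSCG00000011435, chromosome 13 from 34361294 to 34370997) was at 26.4, 25.1 and 32.3 in NC and at 37.9, 21.4 and 27.2 in KD libraries. The groups overlapped, with KD libraries giving both the highest and the lowest value. The log2 fold change of TWF2 was 0.015 (95% confidence interval -0.71 to 0.74, adjusted p = 0.998 by limma), and the exact two-sided permutation test gave p = 0.8, where 0.1 is the smallest p that 3 libraries against 3 allow. At about 17.1 to 38.9 estimated reads per library, this interval is wide. In the RefSeq annotation TWF2 overlaps TLR9 on the same strand, and 62.1% of the 31-base stretches of the TWF2 mRNA also occur in a TLR9 transcript, so reads could be divided between them. TLR9 itself was found through its identifier and was at 0 in every NC library and at most at 1.43 in KD libraries.

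The coding sequences of TWF1 and TWF2 are 61.4% identical in bases over 1053 aligned positions, and no 31-base stretch of the TWF1 mRNA occurs in a transcript of another RefSeq gene. Per kb of mRNA, TWF1 was by far the more abundant twinfilin. The ratio of TWF1 to TWF2 values was 89.2, 77.3 and 56.8 in NC and 33.9, 44.1 and 46.1 in KD libraries. The ratio was thus lower in every KD library than in any NC library, and the TWF2 values themselves overlapped. Since TWF1 was chosen for its lower values in KD, this repeats that choice and is no separate result. With TWF2 at about 17.1 to 38.9 estimated reads per library, the ratio is also imprecise.

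PSTPIP1 (ENSSSCG00000001867) lies on chromosome 7 from 57100212 to 57145278, on the same chromosome as SIN3A. Its abundance was 23.3, 19.2 and 33.6 in NC and 19.4, 24.3 and 21.2 in KD libraries. The groups overlapped, with a log2 fold change of -0.19 (95% confidence interval -0.97 to 0.58, adjusted p = 0.997 by limma, exact permutation p = 0.7). PSTPIP1 did not share the order of libraries seen in PSTPIP2, as it was highest in NC replicate 3 and, among KD libraries, in replicate 2. The coding sequences of PSTPIP1 and PSTPIP2 are 48.4% identical.

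Among the genes that take filaments apart, DSTN stood out by its level. Destrin abundance was 11753, 10207 and 11021 in NC and 12472, 12189 and 11547 in KD libraries. The groups overlapped only through NC replicate 1 and KD replicate 3. The log2 fold change of DSTN was 0.14 (95% confidence interval -0.039 to 0.31, adjusted p = 0.997 by limma, exact permutation p = 0.2). CFL1, the non-muscle cofilin, was at 672, 812 and 739 in NC and at 839, 732 and 672 in KD libraries, and both groups covered nearly the same range. The log2 fold change of CFL1 was 0.011 (95% confidence interval -0.24 to 0.26, adjusted p = 0.997 by limma, exact permutation p = 1). Of the 31-base stretches of the CFL1 mRNA, 16.2% also occur in a transcript of another gene, so its reads could be partly shared.

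CFL2, the muscle-type cofilin, was at 393, 280 and 309 in NC and at 287, 280 and 296 in KD libraries. NC replicate 1 was above all other libraries, and the rest lay close together. For CFL2 the log2 fold change was -0.17 (95% confidence interval -0.48 to 0.14, adjusted p = 0.997 by limma, exact permutation p = 0.4). CAP1, which strips cofilin from aged monomers and recharges them, was at 443, 479 and 435 in NC and at 374, 451 and 427 in KD libraries, with overlapping groups. For CAP1 the log2 fold change was -0.12 (95% confidence interval -0.38 to 0.14, adjusted p = 0.997 by limma, exact permutation p = 0.3). PFN1 was at 1723, 1681 and 1539 in NC and at 1890, 1664 and 1268 in KD libraries, so that KD libraries held both extremes. PFN1 differed by -0.054 on the log2 scale (95% confidence interval -0.31 to 0.21, adjusted p = 0.997 by limma, exact permutation p = 0.8).

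Of the 7 members not chosen for their lower values, 0 were called at an adjusted p below 0.05 by limma, beside 0.159% of all genes tested in either direction (19 of 11986), and none had an unadjusted p below 0.05. Their median log2 fold change was -0.054, beside 0.0026 over all 11986 genes tested. The intervals of CFL1, CFL2, DSTN, CAP1 and PFN1 all stayed at or above -0.48, while those of the low genes TWF2 and PSTPIP1 reached -0.71 and -0.97. LIMA1, TWF1 and PSTPIP2, chosen in this contrast, were the 3 members whose groups did not overlap, beside 4.94% of all genes tested that were lower in KD without overlap and 4.85% that were higher. Ranked by log2 fold change from the lowest, LIMA1 was 9th, PSTPIP2 17th and TWF1 122nd of the 11986.

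**Figure D3:**
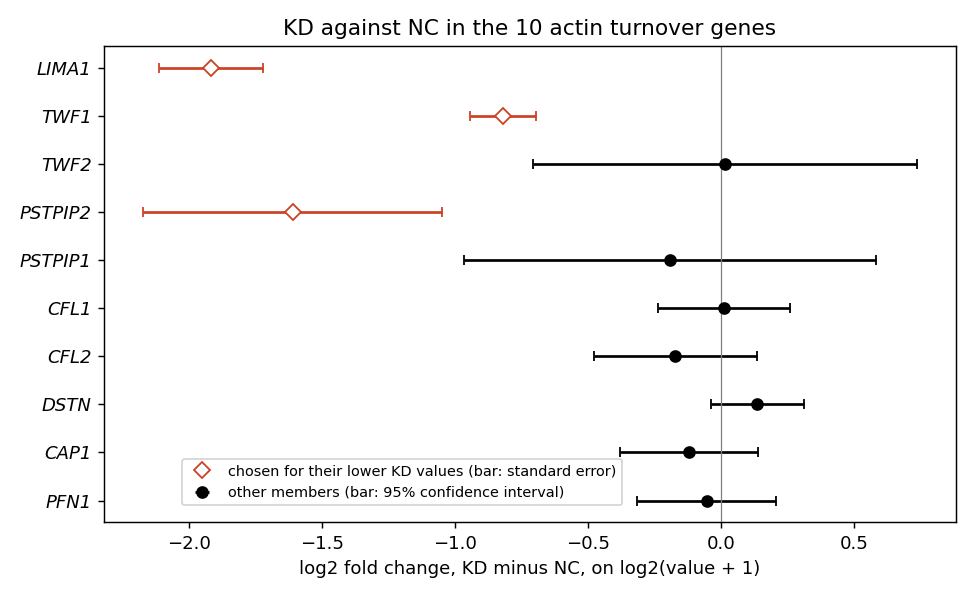
Log2 fold change of KD against NC (horizontal axis, log2(value + 1) scale) for the 10 genes. Open diamonds are LIMA1, TWF1 and PSTPIP2 with standard errors and no test, and filled circles the other 7 genes, whose 95% confidence intervals all include 0.

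Levels of different genes were compared per kb of the longest RefSeq mRNA. In NC embryos the order of mean levels was DSTN (6599 per kb), PFN1 (1854), CFL1 (671), TWF1 (649), CAP1 (136), LIMA1 (133), CFL2 (107), PSTPIP2 (29.6), TWF2 (16.8) and PSTPIP1 (13.0). DSTN was above PFN1, and PFN1 above CFL1, in every library. The NC levels of CFL1 and TWF1 overlapped, as did those of CAP1 and LIMA1 and of LIMA1 and CFL2. Those of PSTPIP2, TWF2 and PSTPIP1 overlapped in each pair. The RefSeq mRNA of PSTPIP2 has 1119 bases of which 1005 are coding, so its level per kb may be set too high by a short gene model. If the deposited values were already adjusted for transcript length, these levels would shift.

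The order changed in KD embryos at the chosen genes. TWF1 was at 583 to 747 per kb in NC, across the CFL1 range of 609 to 736, and at 299 to 408 per kb in KD, below the CFL1 range of 609 to 760. LIMA1 was at 112 to 168 per kb in NC, beside CAP1 at 130 to 144 and CFL2 at 91.2 to 128. In KD it was at 25.1 to 40.9 per kb, below CAP1 at 112 to 135 and CFL2 at 91.3 to 96.2. LIMA1 thereby moved from the level of CAP1 and CFL2 to a place between them and the low genes TWF2 and PSTPIP1. Since LIMA1 and TWF1 were chosen for their lower values in KD, these shifts in order repeat that choice and are no separate result.

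**Figure D4:**
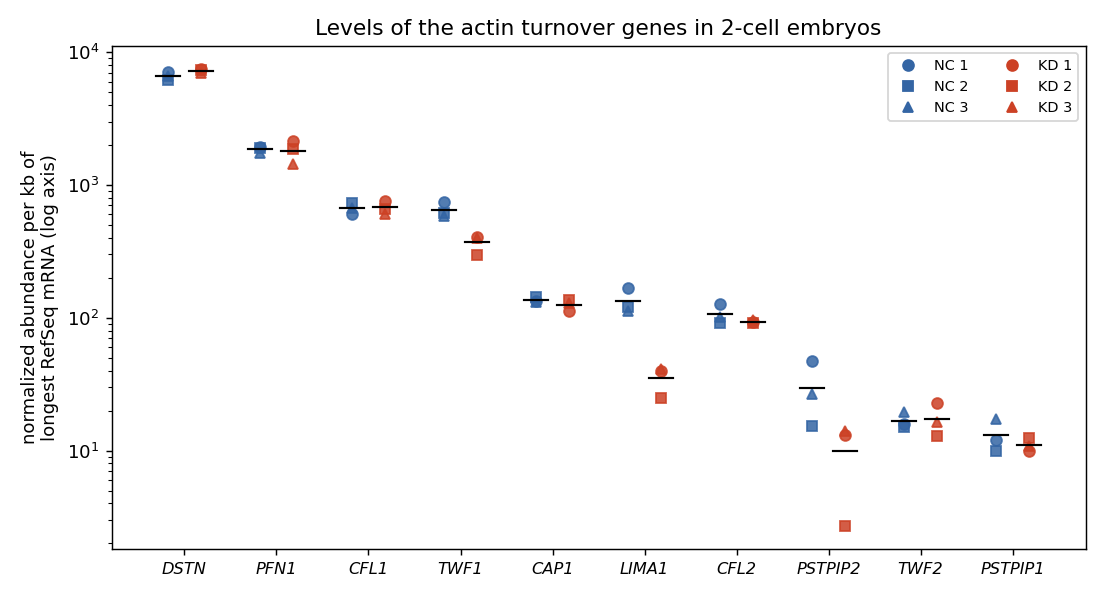
Normalized abundance per kb of the longest RefSeq mRNA (log axis) for the 10 genes in each library, ordered by the NC mean (black lines are means of 3). DSTN is highest in every library, and LIMA1, TWF1 and PSTPIP2 are the genes whose KD points lie below all NC points.

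LIMA1 and TWF1 resembled each other across the libraries. For both, NC replicate 1 was the highest and replicate 3 the lowest NC library, and KD replicate 2 was the lowest KD library. The same holds for SIN3A itself, whose remaining abundance was lowest in KD replicate 2. Over all genes tested, KD replicate 2 was the lowest KD library in 32.4% and NC replicate 1 the highest NC library in 37.9%. The pair of extremes, NC replicate 1 highest and KD replicate 2 lowest, was found in 4 of the 10 members (LIMA1, TWF1, PSTPIP2 and CFL2) and in 14.2% of all genes tested. LIMA1, TWF1 and PSTPIP2 were chosen on these same values, so the 4 of 10 cannot be weighed against that share. Among the members not chosen, CFL2 alone showed this pair. The share of the NC mean in KD libraries was 30.1%, 18.8% and 30.7% for LIMA1 and 62.9%, 46.1% and 61.5% for TWF1.

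Among 10224 other named genes tested, those most like LIMA1 by Pearson r of log2(value + 1) over the 6 libraries were NEK11 (r = 0.995), TWF1 (r = 0.993) and ACOT9 (r = 0.992). Those most like TWF1 were LIMA1 (r = 0.993), NEK11 (r = 0.990) and ACOT9 (r = 0.989). These 6 points fall into 2 separate groups, so r cannot be told apart from the difference between NC and KD. NEK11, a NIMA-related kinase gene, was at 62.5, 55.7 and 48.7 in NC and at 31.1, 25.1 and 33.0 in KD libraries. ACOT9, a mitochondrial acyl-CoA thioesterase gene, was at 273, 266 and 250 in NC and at 205, 177 and 199 in KD libraries. In both genes all KD libraries were below all NC libraries, as in 4.94% of all genes tested. They were picked for likeness to genes chosen for their lower KD values, so this separation followed from the choice. Neither was called by limma (adjusted p = 0.719 for NEK11 and 0.783 for ACOT9). Those most like PSTPIP2 were the phosphatase gene PPM1E (r = 0.992), the amino acid transporter gene SLC38A10 (r = 0.984) and CTNNB1 (r = 0.982). Their log2 fold changes were -0.095, -0.19 and -0.16 in this order, beside -1.61 for PSTPIP2. The groups of PPM1E and SLC38A10 overlapped.

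The wider actin machinery was examined in 8 lists of 171 genes, of which 158 were found and 139 were tested. None of the 139 was called higher or lower by limma at an adjusted p below 0.05, beside the 0.159% of all genes tested. At an unadjusted p below 0.05 there were 7 (5.04%), beside 4.61% of all genes tested. The median log2 fold change of the 139 was -0.030, with 82 below and 57 above 0. The share below 0 was 59.0%, beside 49.4% of all genes tested. Of them 9 had groups that did not overlap, 6 lower and 3 higher in KD, which is 6.47% beside 9.79% of all genes tested.

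Cofilin and monomer regulators had a median log2 fold change of -0.050 over 23 tested genes, with 14 below and 9 above 0. The smallest adjusted p among the 139 genes belonged to SSH2 in this list, a slingshot phosphatase that activates cofilin. SSH2 was at 5361, 5011 and 5051 in NC and at 4232, 4246 and 3816 in KD libraries, so that every KD library was below every NC library. SSH2 differed by -0.33 on the log2 scale (standard error 0.084, adjusted p = 0.321 by limma), which did not pass the threshold.

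Genes for filament end capping and severing had a median of -0.038 over 17 tested genes, with 13 below and 4 above 0. The severing protein gelsolin (GSN) was at 47.6, 47.4 and 62.0 in NC and at 85.4, 84.0 and 64.4 in KD libraries (adjusted p = 0.997 by limma). Its groups were separated narrowly, through NC replicate 3 and KD replicate 3. The Arp2/3 complex and its activators, which nucleate branched filaments, had a median of -0.032 over 23 tested genes, with 14 below and 9 above 0. ABI2, a subunit of the WAVE complex, was at 84.4, 92.1 and 85.2 in NC and at 50.7, 65.4 and 60.5 in KD libraries (adjusted p = 0.993 by limma).

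Formins and Spire, which nucleate straight filaments, had the narrowest range of any list, from -0.15 to 0.083 over 14 tested genes, with 7 below and 7 above 0. None of them had groups apart. F-BAR proteins and PSTPIP partners had a median of 0.0011 over 14 tested genes, with 6 below and 8 above 0. FCHSD1, an F-BAR and SH3 domain protein gene, was at 6.25, 16.1 and 17.1 in NC and at 19.5, 20.1 and 23.1 in KD libraries (adjusted p = 0.997 by limma). Its values lie close to the minimum mean of 10 for testing.

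LIM domain actin binders and LIMA1 partners had a median of 0.0082 over 19 tested genes, with 9 below and 10 above 0. PDLIM7, a PDZ and LIM domain scaffold, was at 79.9, 95.4 and 102 in NC and at 69.7, 59.9 and 40.7 in KD libraries. PDLIM7 differed by -0.72 on the log2 scale (standard error 0.24, adjusted p = 0.852 by limma). CTNNB1, beta-catenin of the junctions that LIMA1 ties to actin, was at 6198, 5724 and 5794 in NC and at 5452, 4915 and 5475 in KD libraries (log2 fold change -0.16, adjusted p = 0.997 by limma). Both genes had groups apart without passing the threshold.

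Actins, bundlers and tropomyosins had a median of -0.028 over 18 tested genes, with 10 below and 8 above 0. They spanned the widest range, from -1.06 for LCP1 to 0.84 for MSN, whose groups overlapped in both cases and which fall outside the naming rule. The tropomyosin gene TPM3 was at 14.9, 16.8 and 12.6 in NC and at 7.01, 7.67 and 11.7 in KD libraries (adjusted p = 0.997 by limma). TPM3 averaged 14.8 in NC and 8.78 in KD, so it passed the minimum mean of 10 only through NC, where it is higher. Cleavage furrow and myosin II genes had a median of -0.054 over 11 tested genes, with 9 below and 2 above 0. ECT2, which activates RHOA at the furrow, was at 3324, 3075 and 2856 in NC and at 2822, 2405 and 2681 in KD libraries (log2 fold change -0.23, adjusted p = 0.997 by limma).

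**Figure D5:**
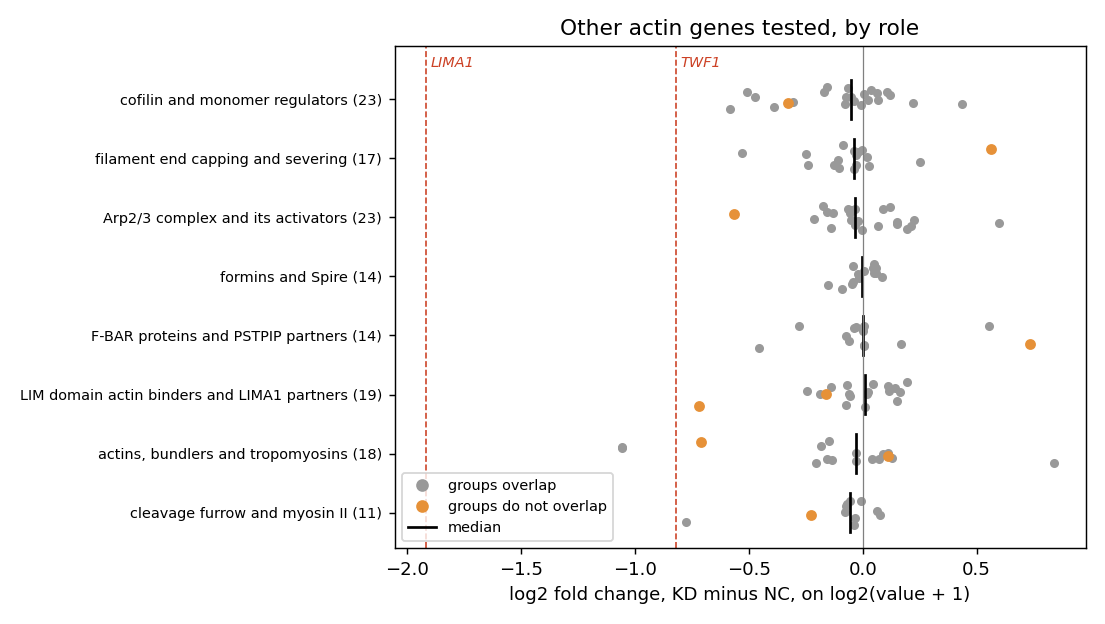
Log2 fold change of KD against NC for the 139 other actin genes tested, by list (number tested in brackets, black lines are medians, orange points have groups that do not overlap). All list medians lie between -0.054 and 0.0082, and the dashed lines mark LIMA1 and TWF1 at -1.92 and -0.82. Both were chosen for their lower KD values, so their distance from the lists follows from that choice. PSTPIP2, also chosen, is at -1.61 and not drawn.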

How the data were processed

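Messenger RNA was selected with oligo(dT) beads and sequenced in 3 NC and 3 KD libraries. Per the labels and the methods, the authors quantified reads against porcine transcripts (Sscrofa11.1) with Salmon 0.14.1 and used DESeq2. The deposited table holds a normalized signal for each Ensembl gene. Its values look like read estimates divided by size factors, but the exact scaling, and whether it included transcript length, is not given in the sources used here, so estimated reads and levels per kb are approximate. Between 55.3% and 69.7% of values below 15 lay within 0.05 of a multiple of a single step per library, so whole reads were not recovered, depths are rough and no count test was run. The mRNA spike-ins were not used here, so total mRNA per embryo was not assessed.

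Testing covered genes averaging 10 or more. It was done on log2(value + 1) with limma 3.58.1 (R 4.3.3), lmFit and eBayes with a variance trend, two-sided, with Benjamini-Hochberg adjustment over 11986 genes. This scale understates changes of low genes. The fit was tested on simulated data with the same log2 noise in every gene, counting noise and no shared replicate effect. The simulation therefore checks the code and not the calls in these libraries. Exact permutation tests used scipy 1.17.1. Beside the members, genes named are those called in a list, the 2 per list with the largest change and groups apart, and the 3 most like each chosen gene. A result under this rule is not reported here. Members and lists were chosen with earlier results of these data known. Names missing from the table were taken from an Ensembl identifier table (837 of 3575). Gene models, windows and shared stretches come from RefSeq on Sscrofa11.1, read with pysam 0.24.0 and Biopython 1.88. The library kit is not stated to mark strand. Alternatives were other pseudocounts, filters and scalings, no variance trend, a replicate block and leaving out each library. The robust empirical Bayes step was added after seeing the data.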

Additional observations from a re-analysis of the deposited data

How the results depend on the processing

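LIMA1, TWF1 and PSTPIP2 were lower in KD in all alternatives in which they were tested. They were chosen for lower KD values, and their groups do not overlap. Leaving out a library or changing the pseudocount or filter could therefore not turn their sign, so the kept sign is no separate support. Leaving out each library in turn gave log2 fold changes of -2.04 to -1.69 for LIMA1, -0.90 to -0.68 for TWF1 and -1.997 to -0.94 for PSTPIP2, with -0.94 without KD replicate 2. With a pseudocount of 10 that of PSTPIP2 was -1.01. With a mean of at least 100 PSTPIP2, PSTPIP1 and TWF2 were not tested. None of the other 7 members passed an adjusted p of 0.05 in any alternative, where the adjusted p from limma ranged from 0.820 to 1. The sign of 4 of them turned. TWF2 was at -0.024 with quantile normalization. With each library left out, TWF2 ranged from -0.20 without KD replicate 1 to 0.20 and was also below 0 without NC replicate 1 (-0.021) or 2 (-0.055). PSTPIP1 ranged from -0.36 to 0.022 (without NC replicate 3). CFL1 ranged from -0.075 (without KD replicate 1) to 0.085 and was at -0.057 without NC replicate 1. PFN1 ranged from -0.18 to 0.11 (without KD replicate 3). The cause was not tested.

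The count of other actin genes called was 0 in all 15 alternatives, with 4 to 13 at an unadjusted p below 0.05. Over all genes 19 were called, 11 to 19 when 1 library was left out (11 without KD replicate 1 or 2, 12 without NC replicate 2 or 3), and 0 without the variance trend, with 622 at an unadjusted p below 0.05. With the replicate block 26 genes were called, and 0 of the other actin genes. The correlation of same-numbered libraries after subtraction of the group means was 0.109, 0.111 and 0.0872, every library correlated best with its own number, and the labels do not say what the number shares. Depth limits PSTPIP2, PSTPIP1 and TWF2 most, with 4.20 to 50.2 estimated reads per library. For the other 7 members 95 of 103 comparisons kept their sign. The medians of the 8 actin lists and of these 7 members, all near 0, changed sign in 20 of 135 comparisons, each time by less than the spread between replicates.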
